A study of Homo sapiens with 4 samples.

Results

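The HOX gene clusters were examined for occupancy by ONECUT2, a transcription factor with a CUT domain and a homeodomain, in 22Rv1, an established human prostate carcinoma cell line. Chromatin immunoprecipitation with sequencing (ChIP-seq) was done on cells for which the labels name no treatment, with 1 rabbit antibody against ONECUT2 in 2 ChIP libraries and with 2 libraries of input DNA, which carry no antibody. Nothing in the labels ties the ChIP libraries to different cultures, and their spread may be technical. Members were all peaks, in the 2 replicate lists and in the list of reproducible regions (irreproducible discovery rate, IDR), that overlapped the HOXA, HOXB, HOXC or HOXD cluster extended by 50 kb on each side. In hg19 the clusters without flanks were chr7:27132614-27250000 for HOXA, chr17:46606807-46806111 for HOXB, chr12:54332576-54449814 for HOXC and chr2:176957532-177055635 for HOXD. These windows held 25 of 14431 peaks in replicate 1, 20 of 11990 in replicate 2 and 18 of 4297 IDR regions.

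HOX genes encode homeodomain transcription factors that give cells their position along the body axis. Within each cluster the genes stand in the order of their paralog groups, from anterior genes such as HOXB1 and HOXA2 to posterior genes such as HOXA13 and HOXD13, and neighbouring genes are often active or silenced together as a block of chromatin. In the prostate the posterior genes are the best known: HOXA13 and HOXD13 act in the development of the urogenital sinus, and HOXB13 is a prostate lineage factor that works with the androgen receptor. The listed HOX genes numbered 38, with 10 in HOXA, 10 in HOXB, 9 in HOXC and 9 in HOXD. HOXB13 was the only one with a position in hg19, at chr17:46802127-46806111, so peaks are placed within clusters and no other gene was assigned to a peak.

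The clusters differed in how many peaks they held. HOXA had 13 peaks in replicate 1 and 12 in replicate 2, HOXB had 7 and 4, HOXC had 5 and 4, and HOXD had 0 in both. The IDR list had 7 regions in HOXA, 7 in HOXB, 4 in HOXC and 0 in HOXD. Peaks in HOXA, HOXB and HOXC were weak to moderate in fold enrichment over input, from 1.95 to 4.54 in replicate 1 and from 2.14 to 3.83 in replicate 2. A fold of 6 or more was reached by 0 of 25 and 0 of 20 HOX peaks, against 7.46% of all replicate 1 peaks and 7.08% of all replicate 2 peaks. At these shares few such peaks would be met among 25 or 20, so counts of 0 do not set HOX peaks apart. By fold, the highest-ranked HOX peak stood at rank 2220 of 14431 in replicate 1 and at rank 3610 of 11990 in replicate 2.

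**Figure D1:**
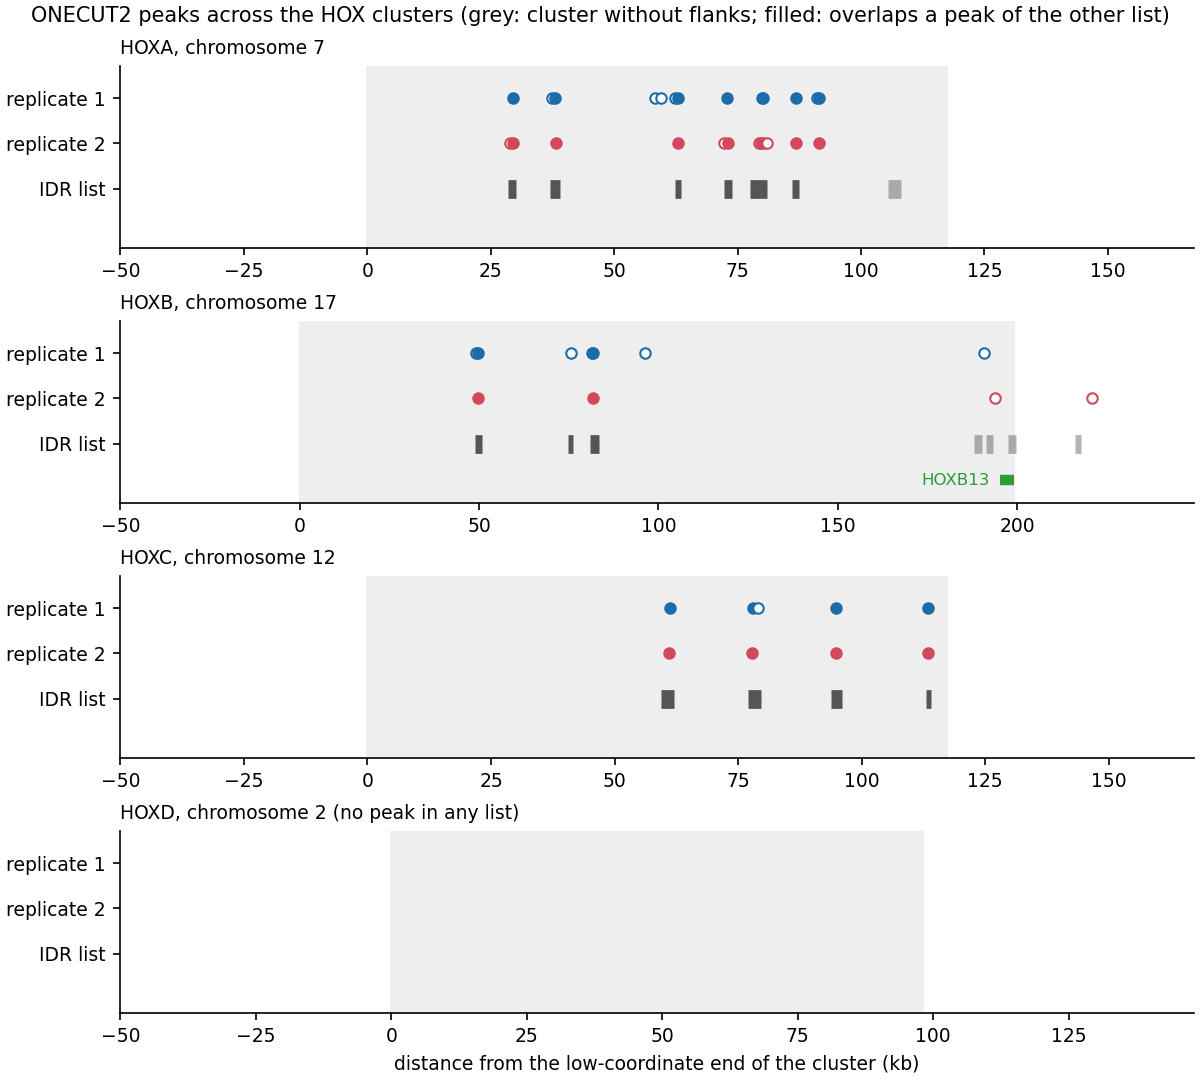
Positions of peaks along the 4 HOX windows, as distance in kb from the low-coordinate end of each cluster (grey band). Circles are peak summits of the replicate lists, filled where the peak overlaps one of the other list, and bars are IDR regions, pale where neither list has a peak. HOXA, HOXB and HOXC hold 13, 7 and 5 peaks of replicate 1, and the HOXD window is empty in all 3 lists.

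Nearly all peaks lay inside the clusters and not in the flanks. All 25 replicate 1 peaks overlapped a cluster itself, as did 19 of 20 replicate 2 peaks and 17 of 18 IDR regions. The only peak in a flank was a replicate 2 peak past the HOXB13 end of HOXB, at chr17:46827722-46827945, with a fold enrichment of 2.35. In HOXA, where genes run from HOXA2 at the low-coordinate side to HOXA13 at the high one, replicate 1 summits fell between 25.1% and 77.9% of the cluster's length. In HOXC the order is turned, from HOXC13 at the low side to HOXC4, HOXC5 and HOXC6 at the high side, and replicate 1 summits fell between 52.2% and 96.8%, the part of the cluster away from HOXC13. The first 60.5 kb of HOXC, at the HOXC13 end, had no peak in either replicate list. In HOXB, which runs from HOXB1 to HOXB13, replicate 1 summits fell between 24.7% and 48.3%, and a last peak stood at 95.8%. Gene order was taken from the RefSeq gene table of GRCh38.p14, which listed all 38 genes, and positions within clusters from hg19.

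Per Mb of window, HOXA had 59.8 peaks in replicate 1 (95% Poisson interval 31.8 to 102) and 55.2 in replicate 2 (28.5 to 96.4). The whole of chromosome 7 had 7.41 and 8.06 per Mb, so both HOXA intervals lay above the chromosome. HOXB had 23.4 per Mb in replicate 1 (9.40 to 48.2), above the 7.50 of chromosome 17. In replicate 2 HOXB had 13.4 (3.64 to 34.2), an interval that includes the 4.85 of that chromosome. HOXC had 23.0 (7.47 to 53.7) and 18.4 (5.02 to 47.1), and both intervals include the 8.76 and 9.12 of chromosome 12. In the IDR list the windows had 32.2 per Mb in HOXA (12.9 to 66.3), 23.4 in HOXB (9.40 to 48.2) and 18.4 in HOXC (5.02 to 47.1). These stood above the 2.69, 2.84 and 3.13 of their chromosomes. The HOXD interval, 0 to 18.6 per Mb, lay below both HOXA replicate intervals and overlapped all HOXB and HOXC intervals. All these intervals treat peaks as independent. Several HOXA peaks lay within 1 kb of another of the same list, so the HOXA replicate intervals are too narrow. The same holds for the replicate 1 intervals of HOXB and HOXC. HOXB had 2 such peaks each at chr17:46655971-46656722 and chr17:46688080-46688699, and HOXC had 2 at chr12:54410236-54411673. Whether HOXB in replicate 1 stays above its chromosome with close peaks merged was not tested.

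**Figure D2:**
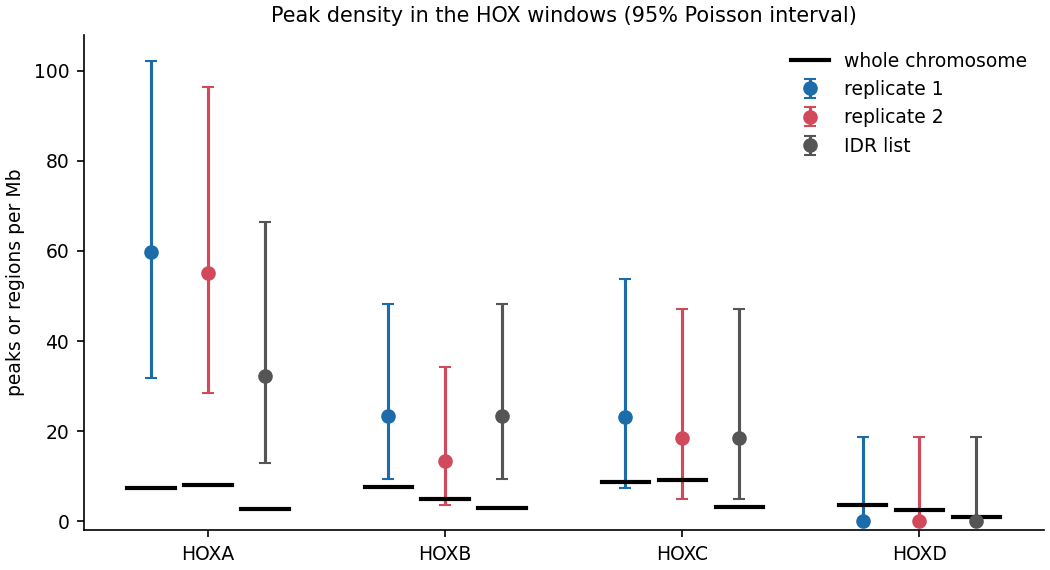
Peaks or regions per Mb of HOX window (vertical axis) in each list, with exact 95% Poisson intervals as error bars that cover counting error only. The intervals treat peaks as independent. Black bars give the density of the whole chromosome in the same list, which the HOXA points of 59.8, 55.2 and 32.2 per Mb exceed with their intervals.

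As a description of how common such windows were, the autosomes and X were cut into consecutive tiles of each window's length. At least 1 replicate 1 peak lay in 39.7% of tiles of the HOXA length, 47.0% of the HOXB length, 39.7% of the HOXC length and 37.5% of the HOXD length. Tiles with at least as many peaks as HOXA made up 0.237% in replicate 1 and 0.273% in replicate 2, and on chromosome 7 alone 0.549% and 1.10%. Tiles with at least as many peaks as HOXB made up 3.77% and 9.93%, and those with at least as many as HOXC 5.15% and 6.31%. In the IDR list, tiles with at least as many regions as HOXA made up 0.0359%, as HOXB 0.138% and as HOXC 0.617%. On chromosome 12 itself, 12.4% and 18.7% of tiles held at least as many replicate peaks as HOXC. HOX windows were centred on a gene cluster and tiles were not, so these shares describe the lists and are no test.

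HOXA was the most densely marked cluster, with 8 of its peaks in each list overlapping a peak of the other. The strongest of these pairs, at chr7:27195236-27196183, had a fold enrichment of 3.82 in replicate 1 and 3.27 in replicate 2, or 3.54 ± 0.389 (SD, n = 2). It also had the most ChIP fragments at the summit of any HOXA peak, 77 and 73, over input backgrounds of 19.4 and 21.6 fragments. The pair at chr7:27219177-27219824 had a fold of 3.61 and 2.93, with 69 and 62 fragments. The values of replicate 1 were higher in both pairs, and in each the fragment numbers differed by less than 1 standard error of counting. At chr7:27205133-27205944 fold was 3.28 and 2.50, and the summits of the replicates lay 303 bp apart, the farthest of all HOX pairs. The other summits in HOXA pairs lay between 3 and 97 bp apart.

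The remaining HOXA pairs were weaker. At chr7:27212722-27213502 fold was 2.94 and 2.57, and at its neighbour chr7:27212295-27212602 it was 2.44 and 2.14. At chr7:27161867-27162220 it was 2.91 and 2.39, and at chr7:27223906-27224168 it was 2.56 and 2.40. The pair at chr7:27170662-27170962 had 1.95 and 2.35, the lowest mean of the HOX pairs at 2.15 ± 0.283 (SD, n = 2), and was the only HOX pair higher in replicate 2. Among HOXA peaks without a partner, the highest in fold was a replicate 2 peak at chr7:27161480-27161757, with 3.75. It lay 236 bp from the nearest replicate 1 peak. A replicate 1 peak of 2.87 at chr7:27191925-27192507 lay 2750 bp from the nearest replicate 2 peak.

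Many HOXA peaks lay close to another peak of the same list. Peaks of both lists were merged where they lay within 1 kb, a step chosen after the data were seen. The 13 HOXA peaks of replicate 1 then lay in 8 sites and the 12 of replicate 2 in 7. Of the 8 sites, 7 held peaks of both lists. The exception was the site at chr7:27190773-27192507, with 2 replicate 1 peaks. The widest site, at chr7:27211863-27213783, held 2 replicate 1 peaks and 4 replicate 2 peaks, and 1 IDR region of 3542 bp overlapped all 6. Neighbouring HOXA sites were a median of 5.92 kb apart, against 15.9 kb in HOXC and 19.7 kb in HOXB. Merged in this way, HOXB had 7 sites with 2 in both lists, and HOXC had 4 sites with 4 in both. Those 2 HOXB sites held 2 replicate 1 peaks each, as did the HOXC site at chr12:54410236-54411673.

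Among the clusters with peaks, HOXB gave the pair of highest mean fold and also the lowest count of shared peaks. At chr17:46688341-46688699 fold was 4.32 in replicate 1 and 3.83 in replicate 2, or 4.08 ± 0.343 (SD, n = 2), with 50 and 49 fragments and summits 6 bp apart. At chr17:46656194-46656722 fold was 3.78 and 3.23, with 38 and 34 fragments. These 2 pairs lie toward the HOXB1 side of the cluster. The other HOXB peaks had no partner: 5 in replicate 1, with fold between 2.23 and 3.04, and 2 in replicate 2, with 2.63 and 2.35. Of those in replicate 1, 2 lay beside a shared pair, 14 bp and 126 bp from the replicate 2 peak. The highest of the unshared peaks, with 3.04, stood at chr17:46797564-46797878.

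The HOXB13 end of HOXB differed between the lists. HOXB13 itself overlapped 0 peaks in either replicate list and 1 IDR region, at chr17:46804281-46806613. HOXB genes are read from the high to the low coordinate, and this region covers the start of HOXB13, with 1831 bp inside the gene and 502 bp before it. Its signal of 156 ranked 3453 of 4297, and the nearest replicate peaks lay 6403 bp away in replicate 1 and 3520 bp away in replicate 2. Next to the gene's far end the IDR list had 2 more regions, at chr17:46798182-46800165 and chr17:46794720-46796995, with signals of 203 and 176. Neither overlapped a replicate peak, but the first of them lay between 2 unshared peaks, 304 bp from one of replicate 1 (fold 3.04) and 284 bp from one of replicate 2 (fold 2.63). Past HOXB13, in the flank, the region at chr17:46823061-46824573 also had no peak in either list.

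HOXC had 5 peaks in replicate 1 and, like HOXB, 4 in replicate 2, and all but 1 of them had a partner in the other list. The pair at chr12:54426868-54427807 had a fold of 4.54 in replicate 1, the highest HOX value, and 2.96 in replicate 2, giving 3.75 ± 1.11 (SD, n = 2), the widest spread of any HOX pair. Its fragments numbered 87 and 67, a log2 ratio of replicate 2 over replicate 1 of -0.38 with a counting standard error of 0.23. At chr12:54393106-54394293 fold was 3.63 and 3.43, with 63 and 66 fragments, the closest agreement in fold among the HOXC pairs. At chr12:54445839-54446358 it was 3.73 and 3.09, and at chr12:54410236-54411060 it was 3.72 and 2.75. The 1 HOXC peak without a partner, at chr12:54411241-54411673 in replicate 1, had a fold of 2.42 and lay 241 bp from a replicate 2 peak.

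Peaks were widest in HOXC. Median width was 825 bp in replicate 1 and 720 bp in replicate 2 in HOXC, 343 and 292 bp in HOXA, and 343 and 303 bp in HOXB. Whole lists had medians of 317 and 294 bp. HOXC peaks ranged from 433 to 1188 bp in replicate 1 and from 454 to 860 bp in replicate 2, so their ranges overlapped those of HOXA, 184 to 812 bp and 184 to 927 bp. IDR regions had medians of 1567 bp in HOXA, 1984 bp in HOXB and 2318.5 bp in HOXC, against 1768 bp in the whole list. Replicate peaks covered 2.57% and 2.18% of the HOXA window, 0.797% and 0.441% of HOXB and 1.80% and 1.27% of HOXC.

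The share of peaks with a partner in the other list was 61.5% in replicate 1 (8 of 13, 95% Clopper-Pearson interval 31.6% to 86.1%) and 66.7% in replicate 2 (8 of 12, 34.9% to 90.1%) for HOXA. For HOXB it was 28.6% (2 of 7, 3.67% to 71.0%) and 50% (2 of 4, 6.76% to 93.2%). For HOXC it was 80% (4 of 5, 28.4% to 99.5%) and 100% (4 of 4, 39.8% to 100%). Over all peaks the shares were 51.1% in replicate 1 and 64.5% in replicate 2, which the intervals of all 3 clusters include. Shares were also taken for peaks outside the HOX windows with an input background in each cluster's range. In replicate 1 these were 49.35% for HOXA, 46.7% for HOXB and 46.7% for HOXC. In replicate 2 they were 90.9%, 78.0% and 94.2%, and that of 90.9% lies above the HOXA interval. That interval treats close peaks as independent. All HOXA replicate 2 peaks without a partner lay between 37 and 297 bp from a replicate 1 peak. All 7 merged HOXA sites with a replicate 2 peak also held a replicate 1 peak. The clusters' intervals are wide and overlap each other, so these counts cannot tell whether agreement differed between clusters. At a −log10 q of at least 5 in both lists, 4 of 9 and 4 of 5 HOXA peaks had a partner (44.4% and 80%), as did 2 of 2 and 2 of 2 in HOXB and 4 of 4 and 4 of 4 in HOXC.

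In the 14 HOX pairs, fold was higher in replicate 1 in 13, against 66.7% of all 7370 overlapping pairs, and fragments were more numerous there in 11, against 52.6%. On the log2 scale, replicate 2 over replicate 1 had a median ratio of -0.23 for fold and -0.14 for fragments, against -0.15 and -0.04 over all pairs. Fragments differed by more than 2 standard errors of counting in 0 of 14 pairs, against 5.86% of all pairs. Summits lay within 100 bp of each other in 12 of 14 pairs, against 58.1% of all pairs. The input background of replicate 2 was between 0.804 and 1.22 times that of replicate 1 in these pairs, so fold and fragments need not move alike.

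**Figure D3:**
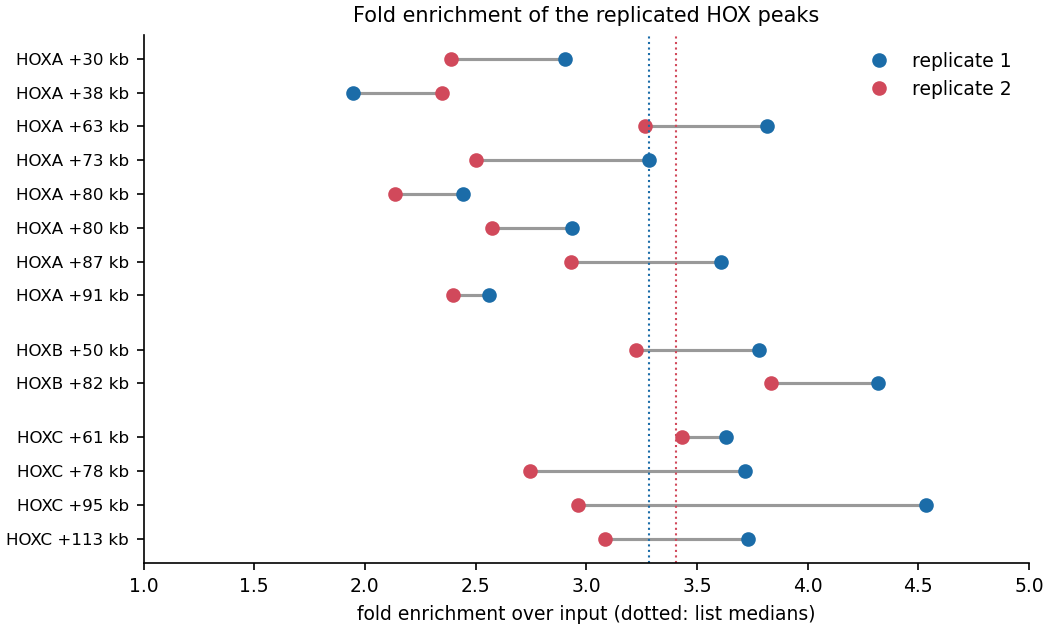
Fold enrichment over input (horizontal axis) of the 14 replicated HOX peaks, 1 row per peak, labelled by distance from the low-coordinate end of the cluster. Points are the 2 replicates and dotted lines the medians of the whole lists, 3.28 and 3.41. Replicate 1 is the higher in 13 rows, and values run from 1.95 to 4.54.

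In HOXA, fold lay below the list medians and fragment numbers above them, while HOXB and HOXC varied. Median fold was 2.56 and 2.40 in HOXA and 2.95 and 2.93 in HOXB, below the 3.28 of all replicate 1 peaks and the 3.41 of all replicate 2 peaks. HOXC stood at 3.72 in replicate 1, above the list, and at 3.02 in replicate 2, below it. Fragments at the summit were instead above the list medians of 34 and 30 in all 13 and all 12 HOXA peaks, with medians of 48 and 46.5. They were also above them in all HOXC peaks, with medians of 63 and 62.5. HOXB had medians of 32 and 33.

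Input background was above the list medians under all HOXA and HOXC peaks, and in HOXB under 4 of 7 in replicate 1 and 4 of 4 in replicate 2. Its median was 18.7 and 19.0 fragments in HOXA, 10.8 and 10.8 in HOXB and 16.4 and 18.5 in HOXC, against 10.2 and 7.39 over whole lists. Other peaks on chromosome 7 did not share this level, since the chromosome's medians were 8.20 and 5.65, and those of chromosome 12 were 9.38 and 6.15. Chromosome 17 had 12.3 and 12.4, above HOXB. Among the 4000 replicate 1 peaks outside the HOX windows with a background in the range of the HOXA peaks, median fold was 2.64, against 2.56 in HOXA. Among the 2834 with a background in the range of the HOXC peaks it was 2.65, against 3.72 in HOXC. In replicate 2 these values were 2.69 against 2.40 for HOXA and 2.56 against 3.02 for HOXC. The part of this background in the fold values was not tested.

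**Figure D4:**
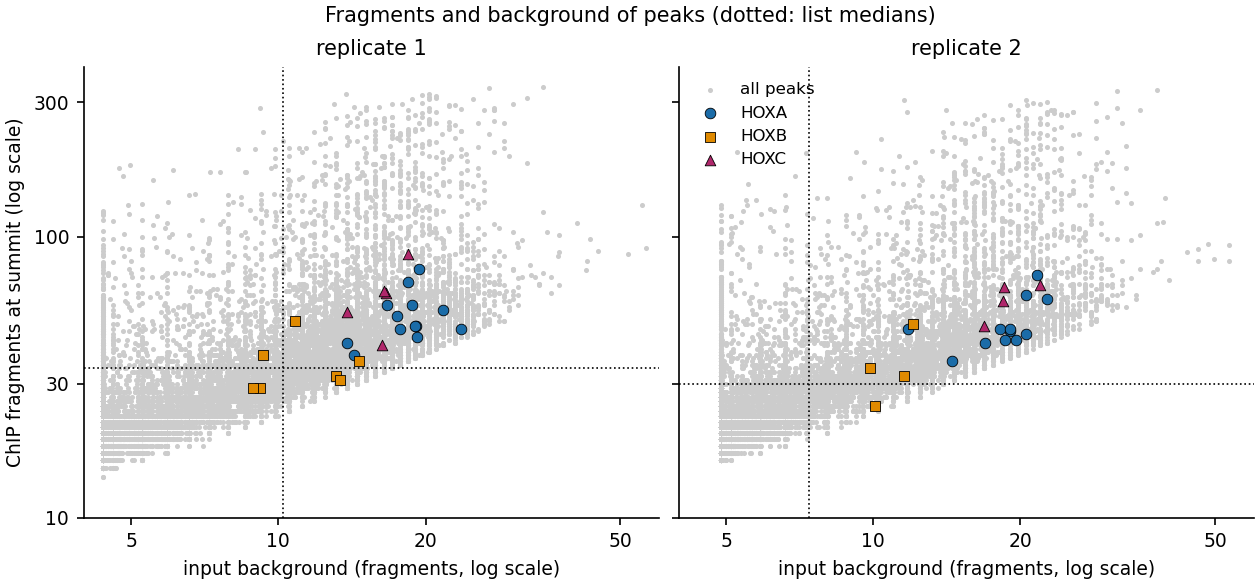
ChIP fragments at the summit against input background, both in fragments on log axes, for each replicate list. Grey points are all peaks with a background below 60 (38 and 17 peaks lie beyond), coloured symbols are HOX peaks and dotted lines are list medians. HOXA and HOXC symbols lie to the upper right of the medians, while HOXB symbols, with medians of 32 and 33 fragments, straddle the horizontal line.

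The IDR list held most HOX replicate peaks. It overlapped 19 of 25 replicate 1 peaks and 17 of 20 replicate 2 peaks, against 32.8% and 31.4% of all peaks. In HOXC all 5 and 4 had such a region, in HOXA 9 of 13 and 11 of 12, and in HOXB 5 of 7 and 2 of 4. Of the 14 HOX pairs 13 had an IDR region, against 42.1% of all overlapping pairs, and the exception was that at chr7:27223906-27224168. Read the other way, 12 of 18 HOX regions had a peak in both lists, against 63.3% of all IDR regions, and 5 had a peak in neither, against 18.3%. Of these 5, HOXB held 4 and HOXA 1, at chr7:27238023-27240731 near the HOXA13 end, whose signal of 143 ranked 4044.

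HOX regions stood in the middle of the IDR list by signal, whose scale the file does not name. Their signals ran from 143 to 264, with a median of 189 against 192 for the list. The strongest, at chr7:27195011-27196244, had 264 and rank 898 and overlapped the strongest HOXA pair. It was followed in HOXA by chr7:27204943-27206389 with 234, chr7:27210025-27213566 with 212, chr7:27161150-27162716 with 207, chr7:27169571-27171616 with 194 and chr7:27218540-27220017 with 168. In HOXB the highest signal, 257 at chr17:46681530-46683038, belonged to a region with a peak in replicate 1 only (fold 2.95, 29 fragments). The HOXB regions with a peak in both lists, at chr17:46687713-46690274 and chr17:46655690-46657553, had lower signals of 183 and 166. In HOXC the signals were 211 at chr12:54391932-54394541, 197 at chr12:54445559-54446728, 181 at chr12:54409597-54412161 and 163 at chr12:54426454-54428525. The last of these overlapped the pair of highest mean fold in HOXC, so the order by signal was not the order by fold.

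**Figure D5:**
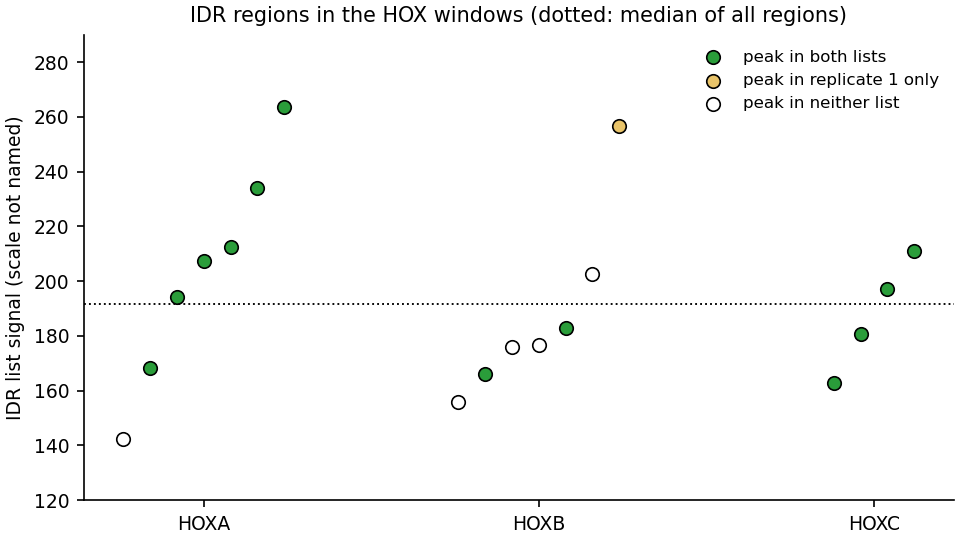
Signal of the 18 IDR regions in the HOX windows (vertical axis, scale not named by the file, starting above 0), coloured by whether the replicate lists have a peak there. The dotted line is the median of all regions, 192. All 4 HOXC regions have a peak in both lists, and 4 of 7 HOXB regions have none.

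HOXD was empty, and so was a long stretch around it. The nearest peak on the low side lay 911 kb from the cluster, at chr2:176046416-176046846 in replicate 1 (fold 4.74) and at chr2:176046465-176046773 in replicate 2 (fold 5.41). On the high side the nearest lay 78.7 kb away, at chr2:177134323-177134527 (fold 3.52), and in replicate 2 at chr2:177134461-177134635 (fold 3.41). The interval without a call between them was 1087 kb in replicate 1 and 1088 kb in replicate 2. On chromosome 2, 48 of 847 such intervals were at least as long in replicate 1 (5.67%) and 55 of 626 in replicate 2 (8.79%). These shares count intervals and not bases. A place chosen beforehand falls more often in a long interval, so they do not say how rare the stretch was. Within 1 Mb of HOXD there were 4, 3 and 2 calls in replicate 1, replicate 2 and the IDR list. Outside the clusters but within 1 Mb, HOXA had 19, 29 and 8, HOXB had 26, 15 and 7, and HOXC had 39, 32 and 18.

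An empty HOXD window was not rare for its length. On chromosome 2, 33.0% of tiles of that length held a replicate 1 peak, 28.2% a replicate 2 peak and 13.8% an IDR region. The Poisson limit of 18.6 per Mb for a count of 0 also exceeds the 3.49 and 2.58 per Mb of chromosome 2. The lists give called peaks only, so weaker occupancy at HOXD, at genes such as HOXD13 or HOXD11, was not detectable from them.

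Recognition sequences of ONECUT type were looked for in the promoters of HOX genes. RefSeq promoter windows of GRCh38.p14, 250 bases before to 50 after a gene's start, matched 20 of the 38 HOX genes: 9 in HOXA, 1 in HOXB, 2 in HOXC and 8 in HOXD. HOXC4 and HOXC5 had the same window. The ONECUT-type cores searched on both strands were ATCGAT, which reads the same on both, and ATTGAT, which reads ATCAAT on the other. ATTGAT was found in 3 of 20 HOX windows, against 6.26% of all 35116 windows, and ATCGAT in 1 of 20, against 0.763%. HOXA2, HOXA10 and HOXD11 held ATTGAT, and HOXD11 also held ATCGAT, after its start. The letters TTTAT, of the type bound by posterior HOX proteins, were in 10 of 20 against 34.9% of all, and TAAT, common to many homeodomains, in 15 of 20 against 50.2%. A match is a description of letters and not of a bound site. The 250 bases before the start of HOXD11, GRCh38.p14 chr2:176107030-176107279 on the plus strand, and the 30 bases around the HOXA2 and HOXA10 matches, chr7:27102780-27102809 and chr7:27179879-27179908 on the minus strand, are shown from 5′ to 3′ with the core in capitals. They are shown because HOXD11 carries cores in a cluster without peaks, while HOXA2 and HOXA10 lie in the cluster with the most.
HOXD11: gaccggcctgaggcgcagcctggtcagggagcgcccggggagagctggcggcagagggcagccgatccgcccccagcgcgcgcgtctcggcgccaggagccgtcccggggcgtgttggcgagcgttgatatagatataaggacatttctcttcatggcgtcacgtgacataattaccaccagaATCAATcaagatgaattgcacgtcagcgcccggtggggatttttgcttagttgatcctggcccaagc
HOXA2: cgacttttttggATCAATcaaacagacagt
HOXA10: ggcgcacttccgATCAATgtcaaagccgcc
The ATTGAT match, read as ATCAAT, began 67 bases before the start in HOXD11, 114 in HOXA2 and 35 in HOXA10. The ATCGAT of HOXD11 lies after the start and is not among the bases shown. Whether a HOXA peak lies over either HOXA match was not analysed here, since the peaks are in hg19 and the promoters in GRCh38.p14.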

How the data were processed

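The deposited lists hold ChIP-seq peaks of 2 ONECUT2 libraries set against input DNA, and 1 IDR list. Per the submitters' processing notes, BWA 0.7.13-r1126, Picard and MACS2 2.1.1 were used, with the build hg19, without the step of each. Per the file headers, the replicate lists are MACS2 peaks, called per ChIP library per the labels, and the third is an optimal IDR set. Calling settings, read filters, total read numbers and how IDR combined the libraries are not given in the sources used here. In the replicate lists the authors deposited a fold enrichment (a ratio to the local input background), −log10 p and −log10 q values and a score. In the IDR list they deposited a score and a signal, both on scales the header does not name. All these are the authors' values per peak.

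Windows were the given cluster positions with 50 kb flanks. An overlap needed 1 bp, and a partner was the overlapping peak of nearest summit. Chromosome length was the largest peak end in the lists. ChIP fragments and background were recovered from fold, taken as (fragments + 1)/(background + 1), and the Poisson −log10 p. A whole number was found within 0.001 in 14429 of 14431 and 11989 of 11990 peaks. Recovery was run on data simulated from the same formula, and overlap on planted peaks. These runs check the code and cannot test whether the formula holds for the deposited values. Fragment numbers, with medians of 34 and 30, limit the precision of fold. Intervals (95%) cover counting error only and treat peaks as independent. With 2 libraries no exact test can pass, so no p-value was computed. All shared peaks, IDR regions, the highest unshared peak of each cluster and peaks at HOXB13 were named. Other named peaks were chosen after their values were seen. Members, lists and rules were chosen with earlier results of these data known. Python 3.11.15, scipy 1.17.1, pandas 2.3.3 and matplotlib 3.10.9 were used.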

Additional observations from a re-analysis of the deposited data

How the results depend on the processing

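Over 92 alternative values that keep both replicates, 68 stayed within their spread, interval or 1.5 times their count, and 24 did not; causes were not tested unless stated. Without a flank, densities (mean of both replicates) became 106 per Mb in HOXA and 38.4 in HOXC, by the shorter window alone, and median fold in HOXB became 3.09. With 100 kb flanks, density became 44.1 in HOXA and 3.35 in HOXD, and mean counts became 7 in HOXC and 1 in HOXD. At a −log10 q of at least 5, mean counts fell to 7 in HOXA and 2 in HOXB and densities to 32.2 and 6.68. Median width there was 541 bp in HOXA and 403 bp in HOXB, median fold 2.92 and 3.79, and the shares with a partner were 100% in HOXB in both lists and 100% in HOXC replicate 1. Measured by fragments in place of fold, medians relative to the list turned from below 1 to 1.48 in HOXA and 1.02 in HOXB, and became 1.97 in HOXC. The upper part of the IDR list by signal kept 2 regions in HOXB and 2 in HOXC. Merging peaks within 1 kb, an alternative chosen after seeing the data, left 8 sites in HOXA. A reciprocal overlap of 50% or summits within 100 bp moved no value beyond its interval. Taking the partner of largest overlap could move none, since no shared HOX peak overlapped more than 1 peak of the other list. Those 14 values are among the 68 that stayed and are no check. Each replicate taken alone gave peak counts within 1.5 times the mean of both. For widths and fold, 2 replicates allow no such check. No paired analysis was possible because the lists hold no separate values of the numbered input libraries and no test was run. Fragment numbers of 25 to 87 at HOX summits limit what any pair can show.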
